A study of Arabidopsis thaliana with 6 samples.

Results

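The microRNAs of Arabidopsis thaliana that carry a family number of 1000 or more, with their star strands, were followed through 6 small RNA libraries. They were taken by name from the deposited list of 679 genomic intervals: every interval whose family number reached 1000 entered, except miR2111, whose 8 intervals were left out. This gave 226 of the 679 intervals, of which 114 were named as mature miRNAs and 112 as star strands, in 84 families and 104 hairpins. Intervals that shared a sequence and had identical counts in every library were counted once, which left 201 distinct members (99 mature, the others star strands) of 563 distinct sequences in all. Merging on identical counts alone would have joined unrelated sequences with few counts into 64 patterns above 0, so it was not done.

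The libraries came from 10-day-old seedlings of the Col-0 ecotype, 1 library for each of 6 groups. The groups were wild type (WT), the mutant parg1-1 and the double mutant parp1parp2, each without treatment or with 100 nM flg22. All seedlings had spent the day before treatment in water after growth on agar plates. The sources used here do not give how long flg22 was applied, which alleles parp1parp2 carries or how many seedlings a library pooled. PARP enzymes attach ADP-ribose chains to proteins and PARG enzymes remove them, and flg22 is a peptide of bacterial flagellin that plant cells perceive through the receptor FLS2. The PARG and PARP transcripts are not measured in these files, so the genotype labels could not be checked against them, and miRNA intervals hold no defining markers by which to check the tissue. Whole seedlings were used, so fewer cells of a type and less RNA per cell cannot be told apart.

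Plant miRNAs are cut by the Dicer-like enzyme DCL1 from the stem of a hairpin transcript as a short duplex. One strand, the mature miRNA, is loaded into an Argonaute protein and guides it to transcripts with a matching site, while the partner, called the star strand, is usually degraded. Family numbers follow the order in which sequences were registered. The low numbers hold most of the conserved families of land plants, and the high numbers hold many that are known from few species, are weakly expressed or have hairpins that resemble recent inverted duplications. The first base of the small RNA influences which Argonaute takes it up: AGO1 favours U and AGO2 favours A.

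The sequences on which the results turn are shown 5′ to 3′, with bases 2 to 8 in capitals. These bases are called the seed here, although plant miRNAs pair with their targets over most of their length. They were read from the RefSeq TAIR10.1 genome at the positions of the deposited intervals, on the strand of the annotated hairpin. The first pair is miR5026, the most abundant member, and its star strand, chr4:7844612-7844632 and chr4:7844552-7844572 on the plus strand.
miR5026: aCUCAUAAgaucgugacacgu
miR5026-star: gUGGCACGacccugugaguua
The next pair is miR5995b, the second most abundant member, and its star strand, chr2:10026979-10026999 and chr2:10027012-10027032 on the plus strand. The same mature sequence is also listed as miR5595a, which lies on the minus strand of the same inverted repeat.
miR5995b: aCAUAUGAucugcaucuuugc
miR5995b-star: aAAGAUGCagaucauaugucc
MiR4245 is shown because its star strand held most of its counts. The star strand lies at chr5:21161510-21161530 and the mature strand at chr5:21161609-21161629, both on the plus strand.
miR4245-star: uGUCAGUAuaaaucuuugauc
miR4245: aCAAAGUUuuauacugacaau
MiR5012, chr2:8432747-8432767 on the plus strand, and miR5996, chr4:7882848-7882869 on the minus strand, had the lowest p-values among the tested members when the mutants were compared with each other.
miR5012: uUUUACUGcuacuuguguucc
miR5996: uGACAUCCagauagaagcuuug
MiR1886.1 and miR1886.2 are overlapping products of 1 hairpin, chr2:15611873-15611893 and chr2:15611882-15611902 on the plus strand, and are shown because their different start positions give them different seeds.
miR1886.1: uGAGAGAAgugagaugaaauc
miR1886.2: uGAGAUGAaaucuuugauugg
MiR5640, chr1:1653539-1653559 on the minus strand, shares the seed of miR1886.1.
miR5640: uGAGAGAAggaauuagauuca

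The 99 mature members held 97 distinct seeds. A pair of seeds was held by more than 1 member: GAGAGAA by miR5640 and miR1886.1, and GGAAGAA by miR5020a and miR5641. A further pair was shared with miRNAs of lower number, AUGAGAG between miR5029 and miR400 and GAGAUGA between miR1886.2 and miR774b-5p. Among the mature members, 47.5% began with U and 37.4% with A. In the class with numbers between 400 and 1000 these shares were 73.6% and 14.5%, and in the class under 400 they were 81.0% and 5.17%. A length of 21 bases was held by 79.8% of mature members, and the median GC content was 38.1%, against 39.0% and 51.2% in the other classes. These are properties of the annotation and not of the libraries. The 36 mature members without a count in any library began with A in 38.9% of cases, close to the 36.5% among the 63 that had counts.

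Of the 114 mature intervals, 48.2% lay outside other annotated genes, against 60.2% of the class between 400 and 1000 and 91.1% of the class under 400. Among those inside genes, 15 lay on the same strand in a protein-coding UTR and 14 on the same strand in a protein-coding intron. The hairpins had a median length of 156.5 bases, against 187 for numbers between 400 and 1000 and 123 for numbers under 400.

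Most members were at or near the limit of detection. Over the 6 libraries, 85 of the 201 members (42.3%) had at least 1 count and 116 had none. Of the mature members 63.6% had a count, and of the star strands 21.6%. Of the 84 families, 56 had a count in at least 1 library and 28 had none. The share with a count was 53.7% for numbers between 400 and 1000 and 82.4% for numbers under 400. The detected members had a median of 3 counts over the 6 libraries together, against 14 and 117 in the other classes. Among them, 25 had a single count, 33 had 2 to 9, 15 had 10 to 49, 11 had between 50 and 1000, and miR5026 had more. A count of 0 allows up to 3 counts in a library, which is between 16 and 25 CPM (counts per 1000000 counts of the distinct sequences in that library), so a member at 0 was not detectable at this depth and is not shown to be absent. Reads were amplified by PCR without molecular identifiers named in the labels, so this limit and the intervals given here cover counting error only.

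In WT 47 members (23.4%) had a count without treatment and 48 (23.9%) with flg22. In parg1-1 the numbers were 49 (24.4%) and 48 (23.9%). In parp1parp2 they were 37 (18.4%) and 41 (20.4%). The parp1parp2 libraries were the lowest and also the shallowest. The distinct sequences summed to between 119798 counts in parp1parp2 with flg22 and 187728 in WT with flg22. At the common depth of 119798 counts the expected shares lay between 18.1% in untreated parp1parp2 and 22.4% in untreated parg1-1. Only 20 members, 3 of them star strands, had a count in all 6 libraries, and 26 had counts in a single library.

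**Figure D1:**
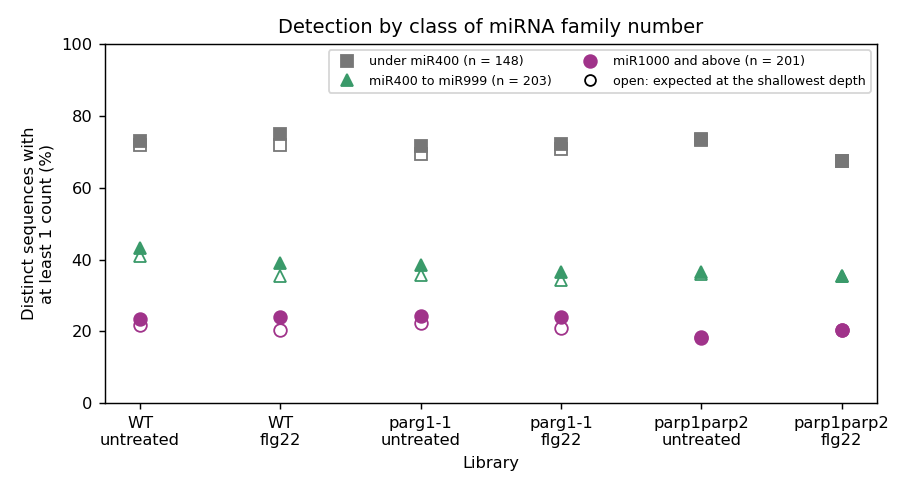
Percent of distinct sequences with at least 1 count (y axis) in each library (x axis) for 3 classes of family number and open symbols give the share expected at the depth of the shallowest library. The members with numbers of 1000 or more lie between 18.4% and 24.4% in all 6 libraries, below both other classes.

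Together the members made up 1.496% of the counts of distinct sequences, against 7.14% for numbers between 400 and 1000 and 91.4% for numbers under 400. MiR5026 alone held 11684 of the members' 13578 counts (86.1%), 51.7-fold more than the next member, and ranked 15 among all distinct sequences. Its hairpin lies in an intron of AT4G13495, a non-coding RNA gene, on the same strand. The sequence has a second exact match in the genome, chr5:14318730-14318750 on the minus strand, where no gene is annotated, and counts cannot be divided between these positions.

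MiR5026 had 2148 counts in untreated WT, 2336 in WT with flg22, 2147 in untreated parg1-1, 2687 in parg1-1 with flg22, 1077 in untreated parp1parp2 and 1289 in parp1parp2 with flg22. In the same order, its level was 15094, 12444, 12909, 16275, 8521 and 10760 CPM. Both parp1parp2 libraries were below the other 4 libraries, which ran from 12444 to 16275 CPM, and the WT and parg1-1 libraries overlapped. The same separation held after TMM scaling, at 3713 and 5219 TMM-scaled CPM in parp1parp2 against 5613 to 8302 in the others. The other members summed to 2178, 1939, 2405, 2277, 1772 and 1836 CPM in the same order of libraries, with parp1parp2 again lowest. The counting intervals of both parp1parp2 libraries overlapped those of both WT libraries. The interval of untreated parg1-1 (2175 to 2652 CPM) lay above both parp1parp2 intervals. That of parg1-1 with flg22 (2053 to 2519 CPM) lay above untreated parp1parp2 only.

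**Figure D2:**
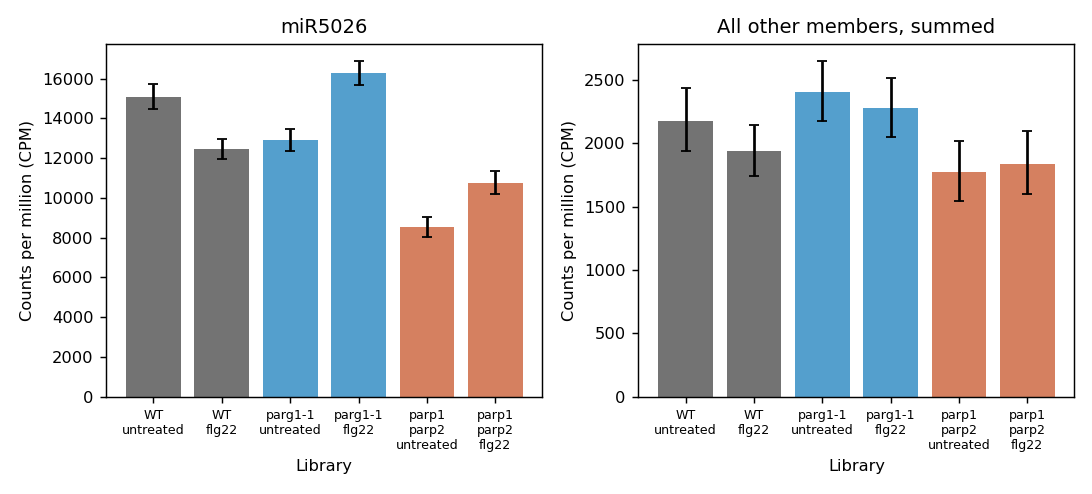
CPM (y axes, from 0) of miR5026 (left) and of all other members summed (right) in each library (x axes); bars are single libraries, coloured by genotype, and error bars are 95% Clopper-Pearson intervals for counting error. MiR5026 is at 8521 and 10760 CPM in parp1parp2 and at 12444 CPM or more in the other libraries.

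The remaining members with at least 50 counts are given by their counts in untreated WT, WT with flg22, untreated parg1-1, parg1-1 with flg22, untreated parp1parp2 and parp1parp2 with flg22, in that order. MiR5995b lies opposite a UTR of AT2G23550, and its copy listed as miR5595a lies on the same strand as that gene. Their shared sequence had 46, 39, 46, 45, 20 and 30 counts. MiR5650, in an intron of AT2G48140, had 24, 33, 46, 26, 26 and 23. Both had counts in every library. On the CPM scale WT overlapped both mutants for miR5995b, while parg1-1, at 277 and 273 CPM, lay above parp1parp2, at 158 and 250 CPM. MiR5650 was highest in untreated parg1-1 and lowest in parg1-1 with flg22. MiR5996, in a UTR of AT4G13560, had 21, 30, 26, 43, 15 and 6 counts, with the lowest values in parp1parp2. MiR4245-star, in an intron of AT5G52070, had 17, 23, 38, 30, 13 and 13 counts. MiR5012, outside other genes, had 12, 20, 25, 34, 7 and 10. Both of these were highest in the parg1-1 libraries and lowest in those of parp1parp2.

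MiR1886.2, in a UTR of AT2G37160, had 27, 26, 21, 20, 17 and 21 counts, and the same sequence is also listed as miR1886.3-star. MiR5028 had 23, 24, 19, 18, 15 and 14 counts, and miR5663 had 18, 18, 11, 20, 16 and 14. On the CPM scale miR1886.2 was at 190 and 138 in WT and at 126 and 121 in parg1-1, and miR5028 was at 162 and 128 in WT and at 119 or less in the mutants. These groups did not overlap, while the genotypes overlapped for miR5663 and the parp1parp2 and WT libraries for miR1886.2. MiR5651 had 15, 22, 19, 14, 15 and 7 counts, miR5654-3p had 17, 12, 22, 20, 12 and 9, and miR5634 had 10, 13, 14, 13, 8 and 9. Both parg1-1 libraries exceeded both WT libraries for miR5654-3p, at 132 and 121 against 119 and 63.9 CPM, and for miR5634, at 84.2 and 78.7 against 70.3 and 69.2 CPM. In the other comparisons of a mutant with WT these members overlapped. The share of all intervals that separate by genotype was not counted, here or for the members above.

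**Figure D3:**
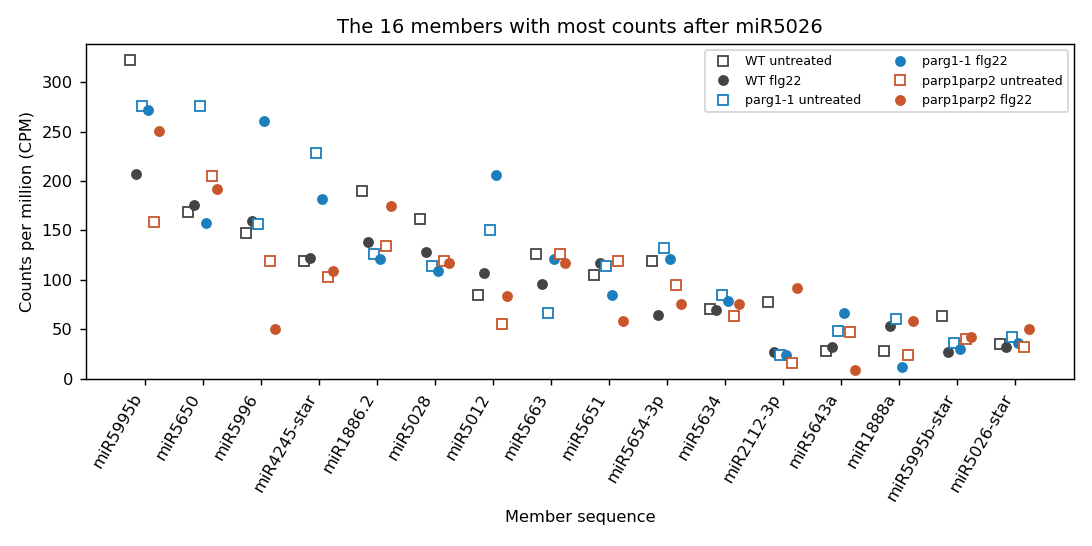
CPM (y axis, from 0) of the 16 members with most counts after miR5026 (x axis, in order of total counts), 1 point per library; colour marks genotype, open squares untreated and filled circles flg22. MiR5012 and miR4245-star have both parg1-1 points on top, and miR5996 has both parp1parp2 points at the bottom.

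For most members with enough counts the mature strand prevailed. The intervals formed 81 distinct pairs of a mature and a star sequence, and 51 of them had a count: 32 on the mature sequence alone, 2 on the star strand alone and 17 on both. Among the 19 pairs with at least 10 counts, 18 had more on the mature strand, 9 of them without a star count, and the median mature share was 99.7%. In the other classes, where no pair was left out by name, the median was 97.8% for numbers between 400 and 1000 and 98.3% for numbers under 400. The star strand held more counts in 1 of 37 and in 5 of 49 pairs. The classes differ in depth, and with few counts a small star share often leaves no star count. These medians therefore do not rank the classes by strand bias. Over the 81 pairs together the mature share lay between 97.6% and 98.5% in the 6 libraries. MiR5026 sets that value, and without it the share lay between 84.8% in untreated parg1-1 and 89.6% in WT with flg22.

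The exception among the pairs counted was miR4245, with 4 counts on the mature strand and 134 on the star strand (2.90% mature, 95% interval 0.795 to 7.26%). Its mature strand had 2 counts in untreated WT, 1 in parg1-1 with flg22, 1 in parp1parp2 with flg22 and none in the other libraries, while the star strand had at least 13 in each. Star counts of at least 10 were also found for miR5026 and miR5995b. MiR5026-star had 5, 6, 7, 6, 4 and 6 counts in the order of libraries used above, so that 99.5% to 99.8% of the pair lay on the mature strand in every library. MiR5995b-star had 9, 5, 6, 5, 5 and 5 counts, and its mature share ran from 80.0% in untreated parp1parp2 to 90.0% in parg1-1 with flg22, with overlapping intervals. In this pair the sequence of each strand is found on both strands of the repeat, so counts cannot be assigned to a hairpin.

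Hairpins annotated by arm also had more counts on a single arm, but some were less one-sided. MiR5654-3p had 92 counts against 21 on miR5654-5p, and miR2112-3p had 37 against 3 on miR2112-5p. MiR3440b-3p had 20 against 6 on miR3440b-5p, and miR5024-3p had 10 against 4 on miR5024-5p. MiR3434-5p had 12 against 1 on miR3434-3p. Some intervals overlapped with a shift of 1 or 2 bases. MiR5654-5p-star, which starts 2 bases later than miR5654-3p, had 0 counts, and miR2112-5p-star, which starts 1 base later than miR2112-3p and ends at the same base, had 0 as well. Other such neighbours both had counts: miR3440b-5p-star had 2 beside 20 on miR3440b-3p, miR5014a-3p-star had 3 beside 1 on miR5014a-5p, and miR5024-3p-star had 1 beside 4 on miR5024-5p. The sources used here do not say how reads were assigned to intervals.

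**Figure D4:**
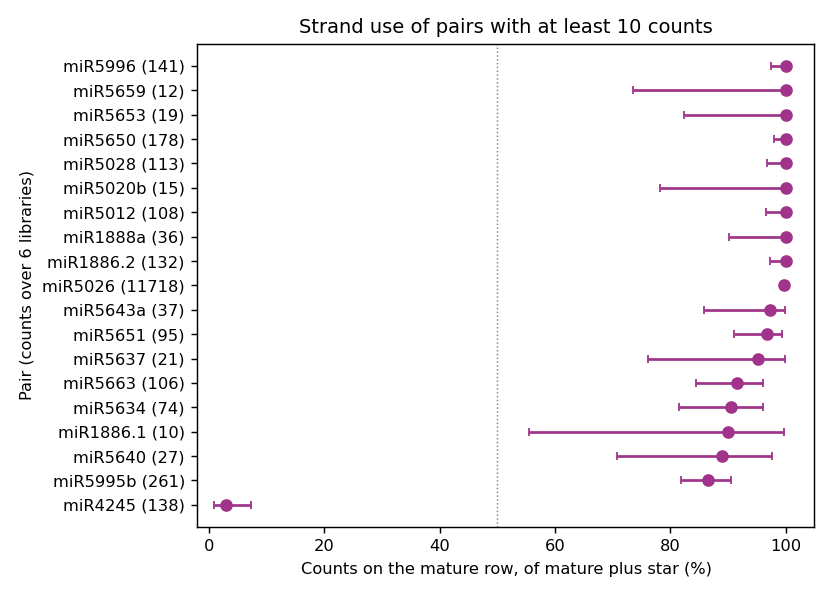
Percent of the counts of a pair that lie on the mature strand (x axis) for the 19 pairs with at least 10 counts (y axis, total counts in parentheses), over the 6 libraries together; error bars are 95% Clopper-Pearson intervals. MiR4245 stands at 2.90% and the other 18 pairs lie above 50%. The pair of miR1886.3 was left out.

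Differences between conditions were tested with edgeR's quasi-likelihood test in an additive model of genotype and treatment over the 6 libraries, with Benjamini-Hochberg adjustment over all 187 intervals that had at least 10 counts in at least 2 libraries. Of the members, 14 sequences passed that filter. Ordered by the count in their second-highest library, the last inside were miR1888a, with 4, 10, 10, 2, 3 and 7 counts, and miR2112-3p, with 11, 5, 4, 4, 2 and 11. The first outside were miR5643a, with 4, 6, 8, 11, 6 and 1 counts, and miR5640, with 2, 8, 2, 3, 7 and 2. These 14 are among the members with most counts and do not stand for the other 187 members. With 1 library per group the residual holds both library noise and any genotype-specific response to flg22, and the p-values measure the spread between these libraries.

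For flg22 against no treatment, 0 of the 14 members passed, where 0% of all intervals were called; at an unadjusted p under 0.05 the number of members was 0 as well, beside 0.535% of intervals. The log2 fold changes of the members ran from -0.42 to 0.45 with a median of 0.0090, beside -0.051 over all 187 intervals. The 5 lowest p-values belonged to miR5012 (log2 fold change 0.45 ± 0.32 SE), miR5654-3p (-0.42 ± 0.36), miR5651 (-0.37 ± 0.35), miR5650 (-0.28 ± 0.28) and miR5026 (0.15 ± 0.22), with an edgeR adjusted p of 0.996 for each. The direction was mixed, with 7 members positive and 7 negative.

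Single pairs of libraries show that miR5026 did not move one way with flg22. After TMM scaling its log2 ratio of flg22 to untreated was -0.43 in WT (95% counting interval -0.52 to -0.35), 0.39 in the parg1-1 pair (0.30 to 0.47) and 0.49 in the parp1parp2 pair (0.37 to 0.61). The value was thus lower with flg22 in WT and higher in both mutants, each beyond counting error, although a single pair has no replicate. A term for the response of 1 mutant against the other genotypes, added after the data were seen, gave an edgeR adjusted p of 1 for parg1-1 and 0.608 for parp1parp2. No member (0) passed that test for either mutant, where 0% of all 187 intervals passed for parg1-1 and 5.88% for parp1parp2.

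For parg1-1 against WT, 0 of the 14 members passed, where 10.7% of all intervals were called. At an unadjusted p under 0.05 there were 2 members, where 20.9% of all intervals had such a p, so the members' count was not above the background. MiR5012 stood at 84.3 and 107 CPM in WT and at 150 and 206 CPM in parg1-1, untreated and with flg22, a log2 fold change of 0.98 ± 0.37 SE with an edgeR adjusted p of 0.163. MiR4245-star stood at 119 and 123 CPM in WT and at 228 and 182 CPM in parg1-1, a log2 fold change of 0.83 ± 0.34 with an edgeR adjusted p of 0.217. Neither overlapped between these genotypes, and neither passed after adjustment. The share of all intervals without such overlap was not counted. MiR5654-3p (0.58 ± 0.43), miR5996 (0.52 ± 0.41) and miR5650 (0.37 ± 0.34) came next, with edgeR adjusted p of 0.486, 0.538 and 0.622. MiR5026 had a log2 fold change of 0.13 ± 0.27. The median over the members was 0.13, beside 0.0084 over all intervals, with 8 positive and 6 negative.

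For parp1parp2 against WT, 0 of the 14 members passed, where 0.535% of all intervals were called, and 0 had an unadjusted p under 0.05, beside 9.09% of intervals. MiR5026 had the smallest p among members: its log2 fold change was -0.58 ± 0.27 SE, and its edgeR adjusted p was 0.616. Without the untreated WT library the value was -0.13, and without the WT library with flg22 it was -0.93. MiR5996 followed, at 148 and 160 CPM in WT and 119 and 50.1 CPM in parp1parp2, a log2 fold change of -0.90 ± 0.48 with an edgeR adjusted p of 0.717. For miR5012 (-0.49 ± 0.43), miR5995b (-0.41 ± 0.40) and miR5651 (-0.43 ± 0.44) the edgeR adjusted p was 0.972. The values were negative for 11 members and positive for 3, with a median of -0.19 beside -0.083 over all intervals. Scaling with each identical sequence counted once moves every log2 fold change in this comparison upward by 0.15, and by 0.13 for parp1parp2 against parg1-1. Under that scaling 7 members were negative and 7 positive against WT, with a median of -0.038 beside 0.055 over the 136 distinct sequences tested, without the excess of negative values. With DESeq2 size factors the excess remained, at 10 negative and 4 positive with a median of -0.12.

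The pair of untreated libraries held the single member that met the rule for a pair: libraries 2-fold or more apart, 50 counts or more in the higher of them, and a 95% interval excluding equality. MiR5026 was the only member with enough counts in this pair, where 7.92% of the intervals with enough counts met the rule. It was lower in parp1parp2 than in WT by a log2 ratio of -1.03 (-1.13 to -0.92) after TMM scaling. The ratio fell short of 2 with DESeq2 size factors and with identical sequences counted once. With flg22 the ratio for the same genotypes was -0.10 (-0.20 to -0.0061). In each of the other 6 pairs miR5026 was the only member with enough counts, and the number apart was 0, where 6.48%, 2.02% and 7.45% of intervals were apart for flg22 in WT, parg1-1 and parp1parp2, 8.82% and 16.8% for parg1-1 against WT untreated and with flg22, and 7.55% for parp1parp2 against WT with flg22. With the minimum lowered to 20 counts, 0 of 9, 0 of 9 and 0 of 4 members were apart for flg22 in WT, parg1-1 and parp1parp2, where 7.38%, 6.12% and 8.27% of intervals were. At that minimum the members apart were 0 of 9 for parg1-1 against WT untreated (6.34% of intervals), 1 of 11 with flg22 (18.4%), 2 of 6 for parp1parp2 against WT untreated (10.3%) and 1 of 9 with flg22 (10.1%). The additional members were miR5012 in parg1-1 with flg22 (log2 ratio 1.13, 0.29 to 2.00), miR5995b in untreated parp1parp2 (-1.23, -2.07 to -0.45) and miR5996 in parp1parp2 with flg22 (-1.57, -3.12 to -0.28). When scaled with identical sequences counted once, miR5995b also fell short of a ratio of 2.

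The mutants were also compared with each other. For parp1parp2 against parg1-1, 0 of the 14 members passed, where 1.07% of all intervals were called, and 4 members had an unadjusted p under 0.05, all with lower values in parp1parp2, where 15.5% of all intervals had such a p. MiR5012 differed by -1.47 ± 0.41 SE on the log2 scale, with an edgeR adjusted p of 0.105, from 150 and 206 CPM in parg1-1 to 55.4 and 83.5 CPM in parp1parp2. MiR5996 had -1.42 ± 0.47 (0.143), from 156 and 260 CPM to 119 and 50.1 CPM. MiR4245-star had -1.07 ± 0.36 (0.143), from 228 and 182 CPM to 103 and 109 CPM, and miR5026 had -0.72 ± 0.27 (0.205), from 12909 and 16275 CPM to 8521 and 10760 CPM. Their groups did not overlap. How many of all intervals separate in this way was not counted, so the separation does not set these members apart. MiR5654-3p was the next, at -0.71 ± 0.45 (0.424). The median over the members was -0.33, with 10 of 14 negative (9 with identical sequences counted once), beside -0.022 over all intervals and -0.30 over the 42 tested sequences with numbers between 400 and 1000.

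Whether members passed in this last comparison depended on the setting. With identical sequences counted once, miR5012 and miR5996 both passed, each at an edgeR adjusted p of 0.0314, where 9.56% of the distinct sequences passed. With DESeq2 size factors they passed at 0.0474 and 0.0494, where 4.81% of intervals passed. MiR5026 passed in the DESeq2 Wald test (log2 fold change -0.74, adjusted p = 0.0429), where 6.99% of intervals with an adjusted p passed. Without the untreated parp1parp2 library, miR5996 passed at -2.26 with an edgeR adjusted p of 0.00404, where 14.1% of intervals passed. More sequences passed over the whole list, too, in these settings than the 1.07% above. In each of the other settings the number of members called was 0.

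**Figure D5:**
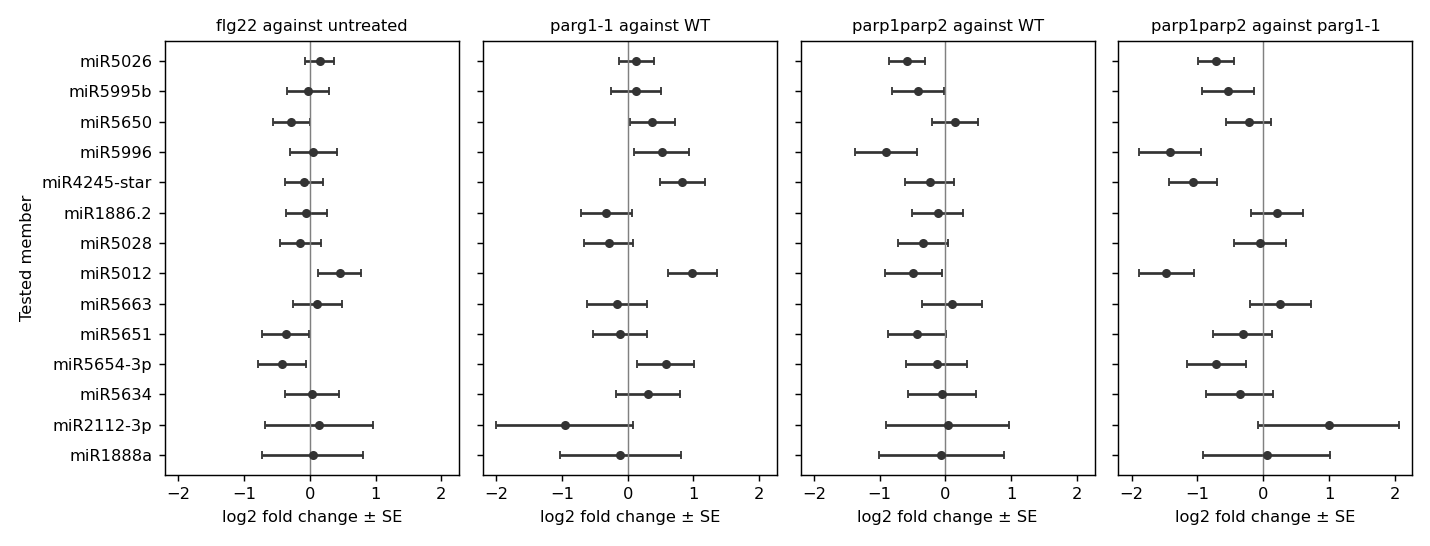
Log2 fold change (x axes) with its standard error for the 14 tested members (y axis) in the 4 comparisons, from the additive edgeR model over 6 libraries. MiR5012 lies at 0.98 for parg1-1 against WT and at -1.47 for parp1parp2 against parg1-1, and no member passed the adjusted threshold in any panel.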

How the data were processed

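Small RNA was sequenced from 6 seedling libraries, 1 per genotype and treatment. The authors deposited whole-number counts per interval, without strand; Bowtie 0.12.8, bedtools and TAIR10 are named per the submitters' processing notes. Counts are used as deposited. Totals over all intervals ran from 247508 to 408805 per library. Coordinates and strands come from RefSeq TAIR10.1, in which all 114 mature member intervals matched annotated mature miRNAs; hairpins were folded with RNAfold 2.7.2. CPM values use counts of distinct sequences. Tests used edgeR 4.0.16 (glmQLFit, glmQLFTest, two-sided, TMM) in R 4.3.3 with limma 3.58.1. The fit had 2 residual and a median of 7.93 prior degrees of freedom, and a biological coefficient of variation of 22.8%. A Benjamini-Hochberg adjusted p under 0.05 was a call, and the fit was tested on simulated data. DESeq2 1.42.0 and scipy 1.17.1 served for alternatives and intervals. Named members had at least 50 counts, were apart in a pair, had at least 10 counts on both strands, were among the 5 lowest p-values of a comparison, or lay next to the filter; other members are named to illustrate sequence or strand and were chosen after their values were seen. The members, classes and rules were chosen with earlier results of these data known. The labels name no separate cultures.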

Additional observations from a re-analysis of the deposited data

Results flagged for a closer look

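The response of miR5026 to flg22 went in opposite directions in WT and in each mutant, beyond counting error: its log2 ratio was higher by 0.82 in parg1-1 than in WT and by 0.92 in parp1parp2 than in WT. MiR2112-3p also had ratios of opposite sign in parp1parp2 and WT, 4.38 apart on the log2 scale. It had 11 counts in untreated WT, 5 in WT with flg22, 2 in untreated parp1parp2 and 11 after flg22 there. Its ratio was -1.69 (-3.57 to -0.047) in WT and 2.69 (0.50 to 5.91) in parp1parp2. The WT interval excludes 0 after the TMM scaling used here. With DESeq2 size factors, or with identical sequences counted once, that interval includes 0. A direct comparison of a single mutant with WT has no replicate and was not tested. Against the other genotypes together, in a term added after the data were seen, the parp1parp2 response of miR2112-3p had an edgeR adjusted p of 0.1197 (unadjusted 0.00843), and 0.449 with identical sequences counted once.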

How the results depend on the processing

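With a single library per group, p-values rest on an additive model with 2 residual degrees of freedom. To these the edgeR test adds a median of 7.93 prior degrees of freedom, estimated over all tested intervals. The p-values thus lean largely on a spread shared between intervals. Depth limits most members to a few counts. The additive model compares flg22 with no treatment within each genotype; the labels give no replicate numbers, so there was no further pairing to fit. Of 231 alternatives of 21 reported fold changes, 217 kept their direction and their side of the threshold, 6 passed it and 8 reversed, all 8 on leaving out a library. The reversed ranges on leaving out a library in turn were -0.44 to 0.00069 for miR5650 and -0.024 to 0.47 for miR5026 with flg22; -0.077 to 1.07 for miR5996, -0.018 to 0.81 for miR5650 and -0.18 to 0.57 for miR5026 in parg1-1 against WT; and -0.94 to 0.18 for miR5995b and -0.81 to 0.059 for miR5651 in parp1parp2 against WT; the cause was not tested. In parp1parp2 against WT, miR5026 ranged from -0.93 to -0.13.

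Members called in parp1parp2 against parg1-1 numbered 2 with DESeq2 size factors, 1 with the DESeq2 Wald test, 2 with identical sequences counted once and 0 to 1 on leaving out a library; in the other 3 comparisons the number was 0 in every setting run. All intervals called numbered 0 to 3 for flg22, 0 to 32 for parg1-1 against WT, 0 to 8 for parp1parp2 against WT and 0 to 26 for parp1parp2 against parg1-1 on leaving out a library. For parg1-1 against WT they were 12 with the DESeq2 Wald test, 1 with a minimum of 5 counts and 12 with identical sequences counted once. For parp1parp2 against WT they were 2 without a filter. For parp1parp2 against parg1-1 they were 9 with DESeq2 size factors, 10 with the DESeq2 Wald test, 4 without a filter, 0 with a minimum of 5 counts (29 at an unadjusted p under 0.05 with edgeR) and 13 with identical sequences counted once.

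Members apart in untreated parp1parp2 against WT numbered 0 under DESeq2 size factors, 0 when identical sequences were counted once and 2 with a minimum of 20 counts (miR5995b also). At 20 counts, 1 was apart in parg1-1 against WT with flg22 (miR5012) and 1 in parp1parp2 against WT with flg22 (miR5996). In the order WT, parg1-1 and parp1parp2, each untreated and then with flg22, the share of members with at least 3 counts was 10.4%, 12.9%, 15.9%, 11.9%, 10.4% and 8.46%, and with at least 10 counts 6.47%, 6.47%, 6.47%, 6.97%, 4.98% and 4.48%. Without miR5026 the mature share was 87.2%, 89.6%, 84.8%, 86.0%, 88.4% and 87.5%, and the summed level was 2178, 1939, 2405, 2277, 1772 and 1836 CPM. Over the total of all intervals the summed level was 8915, 6810, 7504, 9549, 4848 and 6347 CPM, and with a TMM-scaled total it was 16445 CPM in untreated WT.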

Other observations

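The non-coding gene AT4G13495 that holds miR5026 also holds the hairpins of miR850, 1019 bases away, and miR863, 1909 bases away, on the same strand. MiR850 had 1, 1, 0, 10, 1 and 4 counts and miR863-3p had 2, 10, 7, 8, 4 and 2, in WT, parg1-1 and parp1parp2, each untreated and then with flg22. MiR5654 shares its host AT1G32583 with miR400, 255 bases away, which had 56, 39, 32, 19, 31 and 45 counts. That is the most in untreated WT and the fewest in parg1-1 with flg22, where miR5654-3p had 20 counts, among its highest. The other arm, miR5654-5p, had 4, 6, 7, 0, 3 and 1 counts in the same order, so it had its fewest in that library.

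Of the 114 mature member intervals, 10 had a sequence that occurs on both strands of its own hairpin, and counts of these do not tell the strands apart. These were miR5663 with 97 counts, miR5995b and miR5595a with 226, miR5998a and miR5998b with 1, and miR5025, miR5649a, miR5649b, miR5655 and miR5029 with 0.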
